A study of Mus musculus with 18 samples.

Results

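Caveolae are small flask-shaped pits of the plasma membrane, and 7 genes for the proteins of their coat and neck were followed here by RNA-seq in mouse marrow-derived mesenchymal stem cells (MSC). The genes were chosen by name, as Cav1, Cav2, Cavin1, Cavin2, Cavin3, Ehd2 and Pacsin2, with earlier results of these same libraries known, so their values are a description and not independent evidence about the family. All 7 had a row in the deposited table of 54347 genes and values in all 18 libraries. MSC are adherent progenitors of the bone marrow. The study describes the cells as a primary line made in its laboratory from several male C57BL/6J mice and used throughout. In the first experiment MSC were left untreated (control), or received the inhibitor CK666, which keeps the Arp2/3 complex from branching actin, or cytochalasin D (CytoD), a fungal product that blocks filament growth and drives actin into the nucleus. The second experiment used transfected cells throughout, which received a mock control siRNA (siControl), an siRNA that targets Arp4 (siArp4), or the latter together with CK666 (siArp4+CK666). Arp4 is the nuclear actin-related protein encoded by Actl6a. Each group held 3 libraries, and cells given siControl and CK666 together were not analysed here. The study asked how actin in the nucleus and cytoplasm shapes chromatin and transcription.

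A caveola is built from caveolins, hairpin proteins that insert into the inner face of the membrane and oligomerise, and from cavins, soluble proteins that wrap the caveolin bulb from the cytoplasm. Cav1 is the caveolin that drives caveola formation outside muscle, Cav2 is its partner and depends on it to leave the Golgi, and Cavin1 is the cavin without which caveolae do not form. Cavin2 and Cavin3 join Cavin1 in the coat, Ehd2 is an ATPase that encircles the neck and holds the caveola at the surface, and Pacsin2 is a membrane-bending F-BAR protein at the neck. Caveolae flatten when the membrane is stretched, lie along actin cables, and are abundant in fat cells, endothelium, muscle and fibroblasts.

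Library totals ran from 18075610 to 24733212 estimated counts. Actl6a, the target of the siRNA, held 720, 1127 and 841 normalized counts (counts divided by the size factor of the library) in siControl. The siArp4 libraries held 48.8, 57.2 and 19.0 of them, and those with CK666 added 9.52, 22.9 and 17.9. Of 11 marrow stromal markers 8 had a mean length-scaled level (counts divided by the exon length of the gene in kilobases, with all genes of a library scaled to add up to 1000000) of at least 1 in control cells, while Thy1 was at 0 in every group. The stromal markers summed to 2037 to 2177 in control, 1154 to 1604 in CK666, 3266 to 3333 in CytoD, 919 to 2605 in siControl, 839 to 1026 in siArp4 and 686 to 1047 in siArp4+CK666. In CK666 against control none of the 9 with an adjusted p was called by DESeq2 or edgeR, 7 had an unadjusted p under 0.05, and 6 passed the adjusted p on the lower side. In CytoD against control Cxcl12 was called higher, at a mean of 107667 normalized counts against 34517. Cd44 was called lower there, and 4 stromal markers passed the adjusted p on the higher side and 2 on the lower. In siArp4 against siControl only Cxcl12 was called, lower at 12265 against 65306. Blood cell markers summed to 3.48 to 16.8, with Cd3e at 0 in every group. Endothelial markers, from a cell type rich in caveolae, summed to 0.404 or less in any library, and Cdh5, Emcn and Tie1 were at 0 in every group. Adipocyte markers summed to 36.7 to 39.6 in control, 76.3 to 99.3 in CK666, 127 to 147 in CytoD, 64.0 to 96.7 in siControl, 37.3 to 40.3 in siArp4 and 117 to 133 in siArp4+CK666, with Lep at 0 in every group. Smooth muscle markers summed to 2833 to 2934 in control, 1488 to 1747 in CK666, 1135 to 1190 in CytoD, 1053 to 1252 in siControl, 1434 to 1544 in siArp4 and 381 to 406 in siArp4+CK666. These markers did not move together. Acta2 held means of 35864, 19450 and 13524 normalized counts in control, CK666 and CytoD, while Des held 767, 1149 and 1481. Of those with an adjusted p, 3 had a lower and 2 a higher estimate in CK666 against control, and 3 and 1 in CytoD against control. In siArp4 against siControl Cnn1 was called higher and Des lower. Of 3 skeletal muscle markers none reached a mean level of 1 in any group. In a bulk library fewer cells of a type and less RNA per cell cannot be told apart, and the part of these marker changes in the results for caveola genes was not tested. The siControl libraries stood apart from each other. Genes with under 2000 bases of exon took 28.9% of the counts of siControl replicate 2, 22.8% in replicate 3 and 16.4% in replicate 1, against at most 13.97% in control. The siArp4 libraries held 18.2% to 20.2% and the siArp4+CK666 libraries 16.5% to 21.8%. CK666 replicate 1 held 19.3%, and the other CK666 libraries 13.9% and 15.2%. Fits without a single siControl library or CK666 replicate 1 are given with the members' results or in the last section where a call or its direction turned on them.

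The start regions of 4 members are shown because Cav1 and Cav2 are neighbours at very different levels and Cavin1 and Cavin2 are cavins that lay on different sides of control with CytoD. Each window holds 250 bases before and 50 after a transcription start as given by RefSeq on GRCm38.p6, read 5′ to 3′ on the strand of the gene, and where a gene has several windows the one nearest to its GENCODE start is given. Capitals mark matches on either strand to the GC box GGGCGG, the TATA box TATAAA or the TEAD element GGAATG, and a CArG box, the letters bound by serum response factor, was also searched. The windows lie at chr6:17306085-17306384 on the plus strand for Cav1, chr6:17280935-17281234 on the plus strand for Cav2, chr11:100970568-100970867 on the minus strand for Cavin1 and chr1:51288876-51289175 on the plus strand for Cavin2.
Cav1: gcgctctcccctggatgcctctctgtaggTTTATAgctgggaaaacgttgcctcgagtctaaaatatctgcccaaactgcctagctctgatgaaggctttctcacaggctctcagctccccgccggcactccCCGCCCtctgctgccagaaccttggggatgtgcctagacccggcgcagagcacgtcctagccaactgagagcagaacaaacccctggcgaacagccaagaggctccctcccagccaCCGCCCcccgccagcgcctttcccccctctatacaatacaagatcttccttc
Cav2: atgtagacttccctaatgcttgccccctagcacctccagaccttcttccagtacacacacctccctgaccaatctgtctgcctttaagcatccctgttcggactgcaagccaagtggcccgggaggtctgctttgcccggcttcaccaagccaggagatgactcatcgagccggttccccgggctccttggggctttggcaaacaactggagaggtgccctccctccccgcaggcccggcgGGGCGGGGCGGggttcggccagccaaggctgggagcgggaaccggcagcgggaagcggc
Cavin1: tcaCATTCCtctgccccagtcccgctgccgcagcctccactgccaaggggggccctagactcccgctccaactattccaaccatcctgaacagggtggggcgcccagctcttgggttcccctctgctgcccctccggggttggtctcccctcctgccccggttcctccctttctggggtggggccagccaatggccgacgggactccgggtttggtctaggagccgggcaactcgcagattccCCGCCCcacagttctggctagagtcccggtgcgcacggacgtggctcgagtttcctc
Cavin2: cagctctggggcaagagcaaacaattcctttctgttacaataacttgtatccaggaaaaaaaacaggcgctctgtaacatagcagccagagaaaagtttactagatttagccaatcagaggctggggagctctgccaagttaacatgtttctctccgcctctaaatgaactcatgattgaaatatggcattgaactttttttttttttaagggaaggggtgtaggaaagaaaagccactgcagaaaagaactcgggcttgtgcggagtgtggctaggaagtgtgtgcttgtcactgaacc
The Cav1 window held 2 GC boxes and 1 TATA box, all read on the other strand. The Cav2 window held 2 GC boxes that share a base. The Cavin1 window held 1 TEAD element and 1 GC box, both on the other strand. The Cavin2 window held no match to any of the 4 motifs and had a GC content of 43.3%, against 59.3% for Cav1, 64.3% for Cav2 and 66.7% for Cavin1. Of 32851 windows of the same length in the table, 35.7% held the GC box, 13.6% the TATA box, 14.7% the TEAD element and 1.63% the CArG box. Windows of Ehd2 and of Pacsin2 at its outermost start held 2 GC boxes each, and Cavin3 had no window. A match is a stretch of letters, and none of these windows was assayed here.

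Levels of different genes are set side by side on the length-scaled level. On this scale Cavin1 stood first in control cells at 823 ± 10.6 (SD, n = 3), followed by Ehd2 at 390 ± 34.2, Cavin3 at 140 ± 5.75, Cav2 at 127 ± 3.63, Pacsin2 at 65.7 ± 1.60, Cavin2 at 28.9 ± 1.08 and Cav1 at 1.35 ± 0.505. No neighbours in this order overlapped in control libraries, the closest being Cavin3, with levels from 136 to 146, and Cav2, with levels from 123 to 129. With the longest transcript in place of the summed exons as the length, these genes changed places, with Cav2 at 118 ± 3.20 and Cavin3 at 107 ± 4.22, so their order rests on the length used. Cavin1 ranked 177 among all genes by mean level and Cav1 ranked 11845. Cav1, the leading caveolin of non-muscle cells, thus had the lowest level of the 7 in the deposited counts, while its partner Cav2, whose gene lies beside it, was well expressed. From counts per gene alone, little Cav1 transcript in the cells and few reads assigned to Cav1 in quantification cannot be told apart, and this holds for every Cav1 value given here. Cav3, the muscle caveolin, was at 0 in all 18 libraries. The antisense gene Gm15581, which overlaps both Cav1 and Cav2, had a mean of 0.0554 counts in these unstranded libraries.

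**Figure D1:**
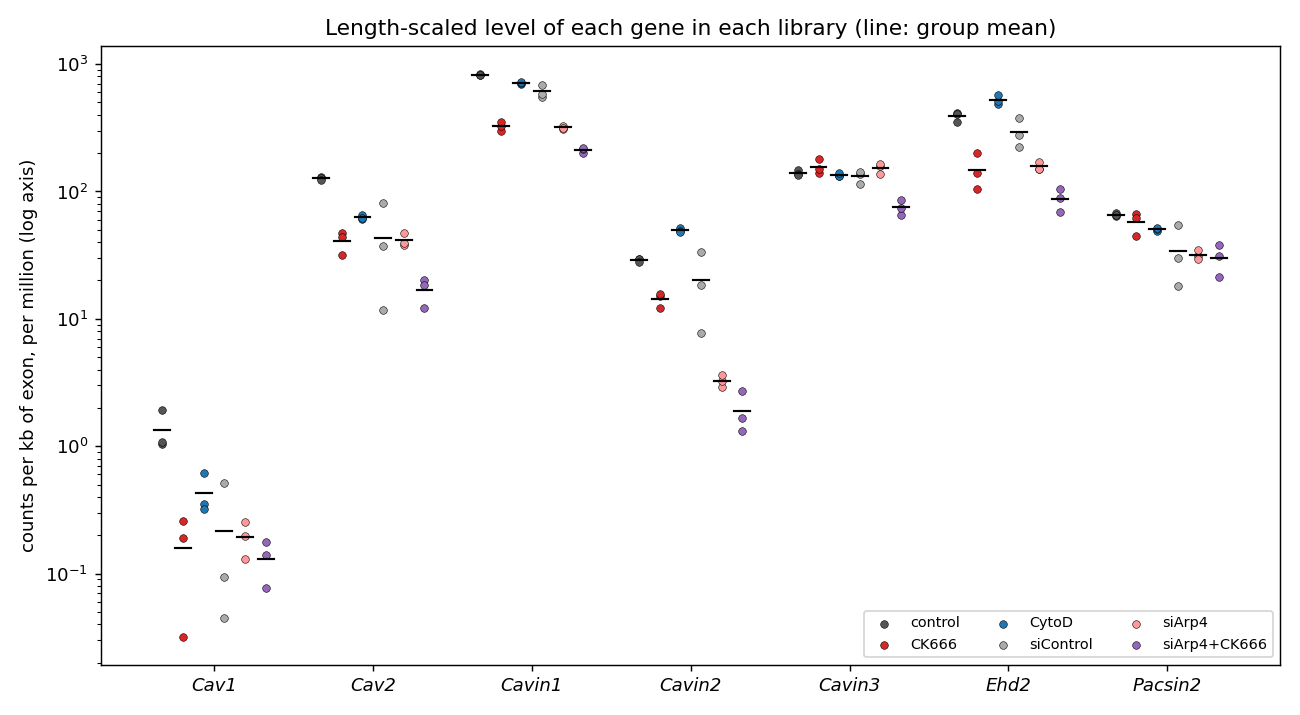
Length-scaled level of each gene (counts per kilobase of exon, scaled to a sum of 1000000, log axis) in each of the 18 libraries, coloured by group, with a line at the group mean of 3 libraries. Cavin1 lies highest and Cav1 lowest in every group, with Cav1 at 1.35 in control and at 0.131 in siArp4+CK666.

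The summed level of the 7 genes was 1576 ± 50.2 (SD, n = 3) in control, 743 ± 64.0 in CK666 and 1531 ± 59.2 in CytoD. It was 1130 ± 71.2 in siControl, 705 ± 10.8 in siArp4 and 422 ± 11.3 in siArp4+CK666. The control and CytoD sums overlapped, at 1518 to 1607 and 1479 to 1595, while CK666 libraries lay at 670 to 791. The composition shifted as well. Cavin1 gave 52.3% of the sum in control, 43.9% in CK666 and 46.5% in CytoD. Cavin3, at a level of 140 in control and 156 in CK666, gave 8.87% of the sum in the former and 21.3% in the latter. Ehd2 gave 24.7% in control, 19.7% in CK666 and 34.0% in CytoD. Cavin2 gave 1.84% in control and 3.23% in CytoD, and in the second experiment 1.73% in siControl, 0.460% in siArp4 and 0.445% in siArp4+CK666. The control and siControl groups come from separate experiments, so transfection and experiment cannot be told apart in the lower siControl sum.

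Blocking Arp2/3 was accompanied by lower transcripts of both caveolins, of the essential cavin and of the neck ATPase. A gene was called where its log2 fold change was beyond 1 in size and its adjusted p from DESeq2, over all genes tested, was below 0.01. In CK666 against control 4 of the 7 genes were called lower, Cav1, Cav2, Cavin1 and Ehd2, where 6.06% of all genes tested were. None was called higher, against 4.89% of all genes. By adjusted p alone 5 of the 7 passed, the fifth being Cavin2, against 30.0% of all genes. The median log2 fold change of the 7 was -1.29, and that of all genes tested was 0.01. Without CK666 replicate 1 the 4 genes stayed called, at -2.75 for Cav1, -1.52 for Cav2, -1.32 for Cavin1 and -1.24 for Ehd2.

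CytoD gave another picture in the same cells. In CytoD against control only Cav2 was called lower, 1 of the 7, where 4.32% of all genes were called lower and 4.8% higher. By adjusted p alone 3 of the 7 passed, Cav2 and Pacsin2 on the lower side and Cavin2 on the higher side, against 29.6% of all genes. The median of the 7 was -0.24 and that of all genes 0.01. Each drug was compared with the same control libraries, so the direct comparison bears on whether the drugs differ. In CK666 against CytoD 3 of the 7 were called lower, Cavin1, Cavin2 and Ehd2, with 6.74% of all genes called lower and 5.08% called higher. By adjusted p alone 4 passed, with Cav2 added, against 31.8% of all genes.

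In transfected cells Cavin1, Cavin2 and Ehd2 were lower with Arp4 depletion. CK666 on top of it was accompanied by lower Ehd2, under the fold minimum, and by lower Cav2. The Cav2 call was lost by edgeR and without any single siArp4 or siArp4+CK666 library. In siArp4 against siControl 2 of the 7 were called lower, Cavin1 and Cavin2, where 9.49% of all genes were called lower and 6.69% higher. By adjusted p alone 3 passed, with Ehd2 added, against 25.1% of all genes. In siArp4+CK666 against siControl 5 of the 7 were called lower, Cav2, Cavin1, Cavin2, Cavin3 and Ehd2, where 12.4% of all genes were called lower and 8.06% higher, and the same 5 passed by adjusted p alone, against 29.9% of all genes. By edgeR 3 of the 7 were called, Cavin1, Cavin2 and Ehd2, and with 1 library left out at a time the count ran from 3 to 5. In siArp4+CK666 against siArp4 only Cav2 was called lower, with 4.12% of all genes called lower and 1.63% higher, and Cav1 received no adjusted p because of its low counts. By adjusted p alone 2 of the 7 passed, Cav2 and Ehd2, against 9.9% of all genes.

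**Figure D2:**
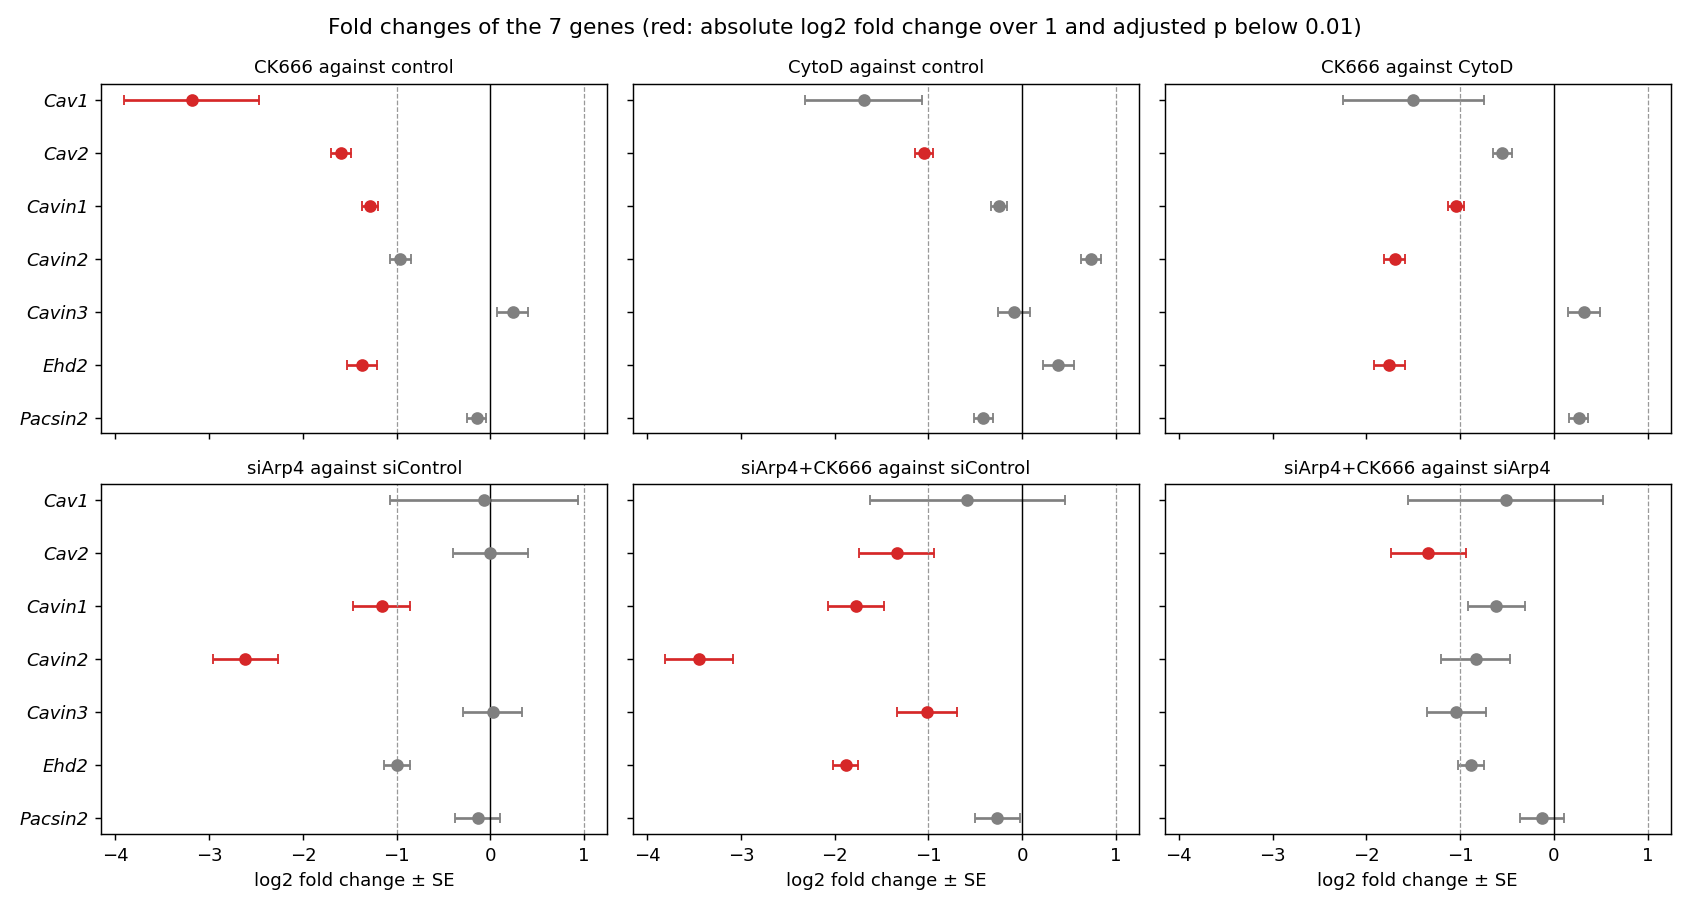
Log2 fold change with its standard error for the 7 genes in the 6 comparisons, 1 panel each, with dashed lines at a log2 fold change of 1 in either direction and called genes in red. Cavin2 runs from -3.45 in siArp4+CK666 against siControl to 0.74 in CytoD against control, while Pacsin2 stays between -0.42 and 0.27 in all 6 panels.

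Cav1 (chr6:17306335-17341452, plus strand) was close to the limit of detection. Its normalized counts were 23.2, 23.4 and 42.4 in control, 0.982, 5.10 and 3.72 in CK666 and 7.44, 6.78 and 13.4 in CytoD. The 3 groups did not overlap, and every treated library lay below every control library. The log2 fold change was -3.19 ± 0.72 (SE) in CK666 (DESeq2 adjusted p = 5.86e-05) and -1.69 ± 0.62 in CytoD (adjusted p = 0.0203, not called), and the difference between the drugs did not pass the test (-1.50 ± 0.76, adjusted p = 0.102). In the second experiment siControl held 10.9, 1.26 and 2.80, siArp4 3.37, 5.40 and 6.01, and siArp4+CK666 3.17, 1.91 and 5.27. These groups overlapped at few counts, and no difference between them was called. The largest estimated count of Cav1 in any library was 40.7 and the smallest 0.843, so each Cav1 fold change rests on few reads.

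Cav2 (chr6:17281185-17289115, plus strand) gave a firmer view of the caveolins, with 2757, 2654 and 2586 normalized counts in control. It held 788, 948 and 912 in CK666 and 1325, 1235 and 1311 in CytoD. The groups fell in 3 separate steps, control above CytoD above CK666. The log2 fold change was -1.59 ± 0.10 in CK666 (adjusted p = 1.19e-52), or 3.02-fold lower, and -1.05 ± 0.10 in CytoD (adjusted p = 2.21e-23), or 2.07-fold lower. The direct difference between the drugs was -0.55 ± 0.10 (adjusted p = 9.42e-07), under the fold minimum.
In transfected cells Cav2 varied more among the controls, with 1637, 440 and 978 in siControl. It held 952, 1000 and 1104 in siArp4, with 442, 440 and 328 in siArp4+CK666. The siControl libraries spanned all siArp4 libraries, and the log2 difference was 0.00 ± 0.40 (adjusted p = 0.999). It was 0.52 without siControl replicate 1 and -0.37 without siControl replicate 2. The siArp4+CK666 libraries lay below every siArp4 library, at -1.34 ± 0.40 (adjusted p = 0.00914), and at -1.34 ± 0.40 against siControl (adjusted p = 0.00343), where siControl replicate 2 overlapped them. Without siControl replicate 2 the last value was -1.70 (adjusted p = 2.63e-10), and without siControl replicate 1 it was -0.82 (adjusted p = 0.0238), no longer called. That call was also lost without siControl replicate 3 or any siArp4+CK666 replicate, and the call against siArp4 was lost without any single siArp4 or siArp4+CK666 replicate or siControl replicate 3, with adjusted p from 0.0183 to 0.0685. By edgeR neither was called (adjusted p = 0.0245 against siControl and 0.0690 against siArp4).

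**Figure D3:**
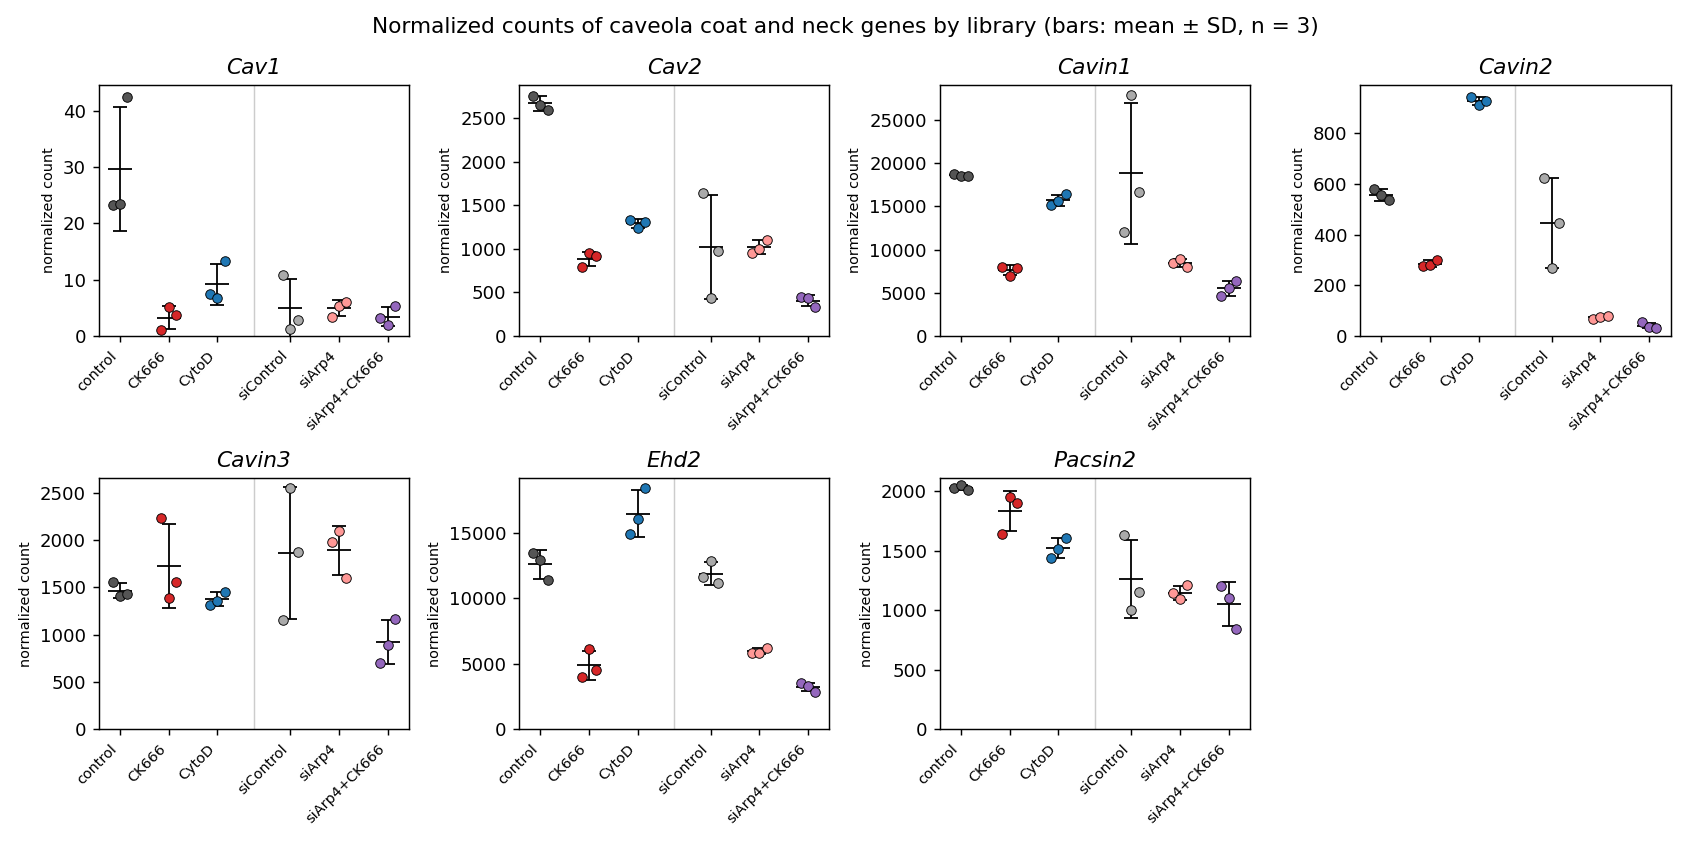
Normalized counts of the 7 genes in each library, 1 panel per gene with its own axis from 0, points for libraries and bars for the mean ± SD of 3 libraries, with the first experiment left and the second right of the grey line. Cav2 steps from 2666 in control to 1290 in CytoD and 883 in CK666, Cavin2 falls from 446 in siControl to 73.0 in siArp4, and the siControl points spread widely for Cav2, Cavin1, Cavin2 and Cavin3.

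Cavin1 (chr11:100956733-100970887, minus strand), the organiser of the coat, was the most abundant of the 7. It held 18808, 18534 and 18478 normalized counts in control, 8023, 6967 and 7913 in CK666 and 15139, 15654 and 16383 in CytoD. CK666 libraries lay far below the others and CytoD libraries just below control. The log2 fold change was -1.29 ± 0.09 in CK666 (adjusted p = 4.42e-49), or 2.44-fold lower, and -0.24 ± 0.09 in CytoD (adjusted p = 0.0139, not called). CK666 lay -1.04 ± 0.09 from CytoD (adjusted p = 1.61e-32), a value that was -0.97 and no longer called without CK666 replicate 2.
In the second experiment Cavin1 held 11996, 27903 and 16660 in siControl, 8395, 8902 and 8017 in siArp4, with 4655, 5517 and 6394 in siArp4+CK666. The 3 groups did not overlap although siControl replicate 2 was high. The log2 fold change was -1.16 ± 0.30 in siArp4 (adjusted p = 7.46e-04) and -1.77 ± 0.30 in siArp4+CK666 (adjusted p = 5.09e-08) against siControl. Without siControl replicate 2 these were -0.77 (adjusted p = 9.48e-04), no longer called, and -1.38 (adjusted p = 3.27e-10). The siArp4 value was also not called without siArp4 replicate 3 (-1.12, adjusted p = 0.0107) or by edgeR (-1.17, adjusted p = 0.0129). The step from siArp4 to siArp4+CK666 was -0.61 ± 0.30 (adjusted p = 0.191).

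Cavin2 (chr1:51289126-51302960, plus strand), which binds phosphatidylserine and shapes the coat, lay on opposite sides of control with the drugs. It held 581, 555 and 535 normalized counts in control, 278, 279 and 300 in CK666 and 945, 913 and 928 in CytoD. No group overlapped another, and within each the libraries lay close together. The log2 difference from control was -0.96 ± 0.11 in CK666 (adjusted p = 1.06e-16) and 0.74 ± 0.10 in CytoD (adjusted p = 1.78e-11), both short of the fold minimum. With the trend of counts on exon length removed the CK666 value was -1.05 (adjusted p = 9.62e-19), called. Between the drugs the log2 difference was -1.70 ± 0.11 (adjusted p = 7.38e-53), or 3.25-fold lower in CK666 than in CytoD.
Cavin2 also had the largest log2 fold change of the 7 in siArp4 against siControl. It held 625, 268 and 445 in siControl, 67.4, 74.5 and 77.1 in siArp4, with 53.9, 36.2 and 32.7 in siArp4+CK666. Every depleted library lay below the lowest siControl library. The log2 fold change was -2.61 ± 0.35 (adjusted p = 2.43e-12), or 6.12-fold lower, in siArp4 and -3.45 ± 0.36 (adjusted p = 5.86e-20), or 10.9-fold lower, in siArp4+CK666. Without siControl replicate 2 the values were -2.88 and -3.71. The further step with CK666 was -0.83 ± 0.37 (adjusted p = 0.128).

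Cavin3 (chr7:105480083-105482300, minus strand), the shortest of the 7 with 1662 bases of exon, did not follow the other coat genes in the first experiment. It held 1555, 1412 and 1425 normalized counts in control, 2229, 1389 and 1552 in CK666 and 1315, 1355 and 1455 in CytoD. All 3 groups overlapped, and CK666 replicate 1, the CK666 library with more counts in short genes, was the highest. The log2 difference was 0.24 ± 0.17 in CK666 (adjusted p = 0.281), 0.01 without CK666 replicate 1, and -0.09 ± 0.17 in CytoD (adjusted p = 0.720).
In transfected cells Cavin3 held 1153, 2553 and 1873 in siControl, 1979, 2095 and 1595 in siArp4, with 704, 889 and 1166 in siArp4+CK666. The siControl and siArp4 libraries overlapped, while siArp4+CK666 lay below every siArp4 library. Against siControl the log2 fold change in siArp4+CK666 was -1.02 ± 0.32 (adjusted p = 0.00519), and without siControl replicate 2 it was -0.72 (adjusted p = 0.0294), no longer called. It also missed the threshold without siControl replicate 3, siArp4 replicate 1 or 2, or siArp4+CK666 replicate 1 or 2, at -0.85 to -1.02, was -0.64 with the trend of counts on exon length removed, and was not called by edgeR (adjusted p = 0.0235). Against siArp4 it was -1.04 ± 0.32 (adjusted p = 0.0107), just beyond the threshold. It was called with the count filter (adjusted p = 0.00965), with only these groups in the fit (adjusted p = 1.05e-05) and with all 18 libraries (adjusted p = 7.51e-04). It was also called without siControl replicate 1 (-1.03, adjusted p = 1.13e-04) or 2 (-1.03, adjusted p = 6.19e-04). Without siArp4+CK666 replicate 3 it was -1.25 (adjusted p = 0.00552), called. It was not called by edgeR (adjusted p = 0.0605) or with the length trend removed (-0.97). With the replicate number as a block the value against siControl was -0.98 (adjusted p = 0.00376), not called, and that against siArp4 -1.07 (adjusted p = 0.00441), called.

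Ehd2 (chr7:15946958-15967567, minus strand), the neck ATPase, was the second most abundant of the 7 in control cells. It held 13474, 12944 and 11357 normalized counts in control, 4014, 6120 and 4497 in CK666 and 14922, 16073 and 18379 in CytoD. CK666 libraries lay below and CytoD libraries above all control libraries. The log2 fold change was -1.37 ± 0.16 in CK666 (adjusted p = 1.05e-15), or 2.58-fold lower, and 0.39 ± 0.16 in CytoD (adjusted p = 0.0461, not called). CK666 lay -1.75 ± 0.16 from CytoD (adjusted p = 1.99e-25).
In the second experiment Ehd2 held 11588, 12826 and 11137 in siControl, 5800, 5817 and 6198 in siArp4, with 3506, 3276 and 2867 in siArp4+CK666. The 3 groups were apart, and the siControl libraries lay close together for this gene. The log2 difference in siArp4 was -0.997 ± 0.135 (adjusted p = 4.58e-12), or 1.995-fold lower, just under the fold minimum. It was called by edgeR (-1.01, adjusted p = 6.17e-04), with the count filter, with the length trend removed, and without siControl replicate 1 (-1.02), siControl replicate 3 (-1.05) or siArp4 replicate 3 (-1.02), and it was -0.94 without siControl replicate 2. In siArp4+CK666 it was -1.88 ± 0.14 against siControl (adjusted p = 1.55e-41; -1.82 without siControl replicate 2) and -0.88 ± 0.14 against siArp4 (adjusted p = 3.88e-09).

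Pacsin2 (chr15:83375607-83464606, minus strand), the F-BAR protein, was called in no comparison. It held 2031, 2051 and 2011 normalized counts in control, 1645, 1957 and 1899 in CK666 and 1443, 1516 and 1607 in CytoD. Control libraries lay above all others, and CytoD below CK666. The log2 difference was -0.15 ± 0.10 in CK666 (adjusted p = 0.254) and -0.42 ± 0.10 in CytoD (adjusted p = 2.23e-04). In the second experiment it held 1630, 1002 and 1157 in siControl, 1144, 1094 and 1210 in siArp4, with 1209, 1106 and 843 in siArp4+CK666. These groups overlapped. The pseudogene Gm5417, which lies within Pacsin2 on the same strand, had a mean of 27.3 counts.

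Whether CK666 acted alike in Arp4-depleted and in untransfected cells was tested as the difference between its 2 effects over all 18 libraries. Cavin3 was the only member called, 1 of the 7 on the lower side, where 2.52% of all genes were called lower and 1.9% higher, and it alone passed by adjusted p, against 7.82% of all genes. Its CK666 effect was lower by 1.27 ± 0.38 on the log2 scale in depleted cells (difference -1.27, adjusted p = 0.00926). By edgeR it was not called (adjusted p = 0.0349). Without CK666 replicate 1 the difference was -1.05 (adjusted p = 0.0519), and of the 12 libraries left out in turn it was called only when the library left out was CK666 replicate 2, siArp4 replicate 3 or siArp4+CK666 replicate 3. For the other 6 genes the difference lay above 0, from 0.01 ± 0.23 for Pacsin2 to 2.67 ± 1.12 for Cav1 (adjusted p = 0.980 and 0.101). It was 0.67 ± 0.33 for Cavin1 (adjusted p = 0.178), 0.48 ± 0.21 for Ehd2 (adjusted p = 0.131) and 0.25 ± 0.42 for Cav2 (adjusted p = 0.777). Depletion and transfection cannot be told apart in this comparison, since both differ between the cells.

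Of 21 other genes of caveolae, their paralogues and partners, 19 had an adjusted p in CK666 against control, and 1 was called lower, where 6.06% of all genes tested were. This was Ehd4, a relative of Ehd2, at -1.16 ± 0.15 (adjusted p = 1.48e-13), with 1896 ± 83.8 normalized counts (SD, n = 3) in control. In CytoD against control none was called by DESeq2 or by edgeR, with 9 below an unadjusted p of 0.05. Of all genes tested 4.8% were called higher and 4.32% lower there. Ehd1, another relative, was at -0.43 ± 0.11 in CK666 and -0.84 ± 0.11 in CytoD, both past the adjusted p and under the fold minimum. Flna, the filamin that ties caveolin to actin, was at -0.89 ± 0.07 in CK666 (adjusted p = 1.87e-37) and -0.68 ± 0.07 in CytoD (adjusted p = 3.47e-22). Between the drugs 5.08% of all genes tested were called higher in CK666 and 6.74% lower. Fyn, a kinase that phosphorylates caveolin, was 1.42 ± 0.15 higher in CK666 on the log2 scale. Ehd3 (-1.02) and Dnm3 (-1.87) were called lower. Without CK666 replicate 1 neither was called (-0.87 and -1.32). The Ehd3 call was also lost with TMM scaling (-0.999) and without CK666 replicate 3 or CytoD replicate 3. The Dnm3 call was also lost by edgeR (adjusted p = 0.0369), in a fit of the compared groups alone (adjusted p = 0.0281) and without CK666 replicate 3 or any single CytoD or control replicate. Dnm1, Dnm2, Dnm3 and Plvap each overlap another expressed gene on the opposite strand, so their values are uncertain here. Cavin4, the muscle cavin, had group means of 22.0 counts or fewer, and Pacsin1 was at 0 in 5 of the 6 groups.

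With Arp4 depletion some of the partners were called higher and others lower. In siArp4 against siControl 6.69% of all genes were called higher and 9.49% lower, and 19 of the 21 had an adjusted p. Of these 3 were called higher, Abl1 (1.07), Flna (1.26) and Dnm1 (2.10), as log2 fold changes. Another 3 were called lower, Ehd4 (-1.82), Flot1 (-1.23) and Flot2 (-1.44). Flotillins build membrane patches apart from caveolae. Without siControl replicate 2 Flna was at 0.94 and Abl1 at 0.91, neither called, and by edgeR Dnm1 (adjusted p = 0.0162) and Flna (adjusted p = 0.0141) were not called. Abl1 was also not called without siControl replicate 3 (0.99) or with the length trend removed (0.94). In siArp4+CK666 against siControl, with 8.06% of all genes called higher and 12.4% lower, 2 were called higher, Dnm1 (1.95) and Plvap (1.76), and 4 lower, Ehd4 (-2.35), Flot1 (-1.91), Flot2 (-1.45) and Dnm3 (-1.87). The calls of Dnm1 and Plvap were lost by edgeR (adjusted p = 0.0187 and 0.0148) and without siArp4+CK666 replicate 3 (adjusted p = 0.0169 and 0.0255). Calls of Ehd4, Flot1, Flot2 and Dnm1 in both comparisons with siControl were kept without any single siControl library. In siArp4+CK666 against siArp4, with 4.12% of all genes called lower and 1.63% higher, Dnm3 (-2.30) and Fyn (-1.003) were called lower. The Fyn value was -0.92 to -0.998 and not called without any single library among siControl replicates 1 and 2, siArp4 replicates 1 and 3 and siArp4+CK666 replicates 1 and 2. In the test of the difference in CK666 effect, with 2.52% of all genes called lower and 1.9% higher, Fyn (-1.83) and Flot1 (-1.06) were called lower. The Flot1 call was lost by edgeR (adjusted p = 0.0291), with the replicate block (adjusted p = 0.0124), with the length trend removed (-0.92) and with 8 of the 12 libraries left out in turn.

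Clathrin coat genes served as a second route of endocytosis. Of 15 listed, 14 had an adjusted p in each comparison. None was called in CK666 against control, CytoD against control or CK666 against CytoD by DESeq2 or edgeR, with 8, 2 and 8 below an unadjusted p of 0.05, and their median log2 fold changes were -0.12, 0.00 and -0.11. Of all genes tested 6.06%, 4.32% and 6.74% were called lower there, and 4.89%, 4.8% and 5.08% higher. By adjusted p alone 5, 2 and 1 clathrin genes passed on the lower side and 1, 0 and 2 on the higher side. The share of all genes that passed was 30.0%, 29.6% and 31.8%. In siArp4 against siControl, with 9.49% of all genes called lower and 6.69% higher, Epn1 was called lower at -1.03. In siArp4+CK666 against siControl, with 12.4% of all genes called lower and 8.06% higher, Epn1 (-1.05) and Cltb (-1.42) were called lower and Picalm (1.04) higher. Without siControl replicate 2 these 4 values were -0.95, -0.96, -0.90 and 0.76, and none was called. Cltc, the clathrin heavy chain, held 17170 counts in control and 15086 in CK666, a log2 difference of -0.19 ± 0.11 (adjusted p = 0.178).

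**Figure D4:**
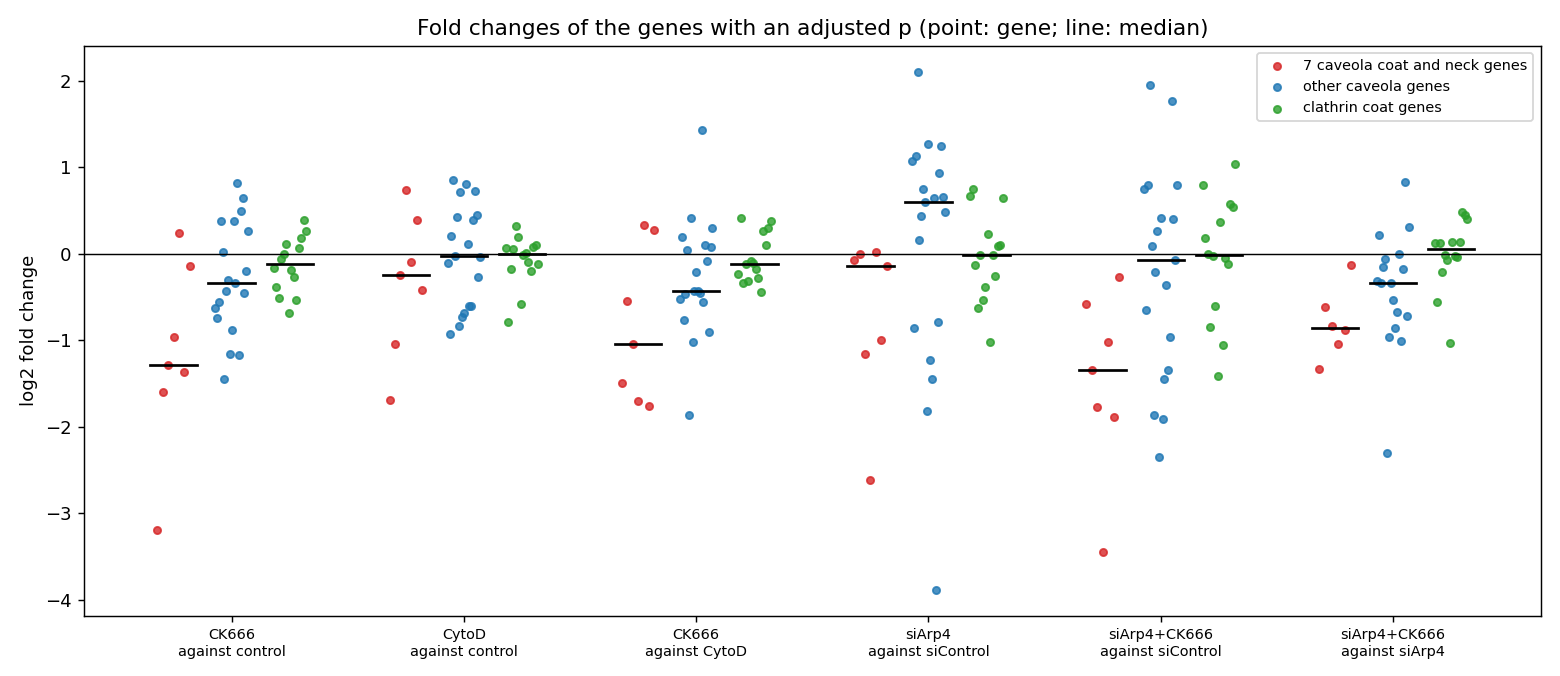
Log2 fold change of every listed gene with an adjusted p in the 6 comparisons, for the 7 caveola coat and neck genes (red), 21 other caveola genes (blue) and 15 clathrin coat genes (green), with a line at each list's median. In CK666 against control the medians are -1.29, -0.34 and -0.12, and the lowest blue point, in siArp4 against siControl, is Nostrin, with group means of 5.07 counts or fewer.

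Cav1 and Cav2 are neighbours on chromosome 6, with 17219 bases between the end of Cav2 and the start of Cav1. Of the other coding genes that start within 500 kb of Cav1, Met, Capza2 and St7 were called in no comparison, and Tfec had a mean of 3.48 counts. Tes, the gene of a focal adhesion protein at -241 kb, was at -0.95 ± 0.09 in CK666 (adjusted p = 1.54e-22) and -0.61 ± 0.09 in CytoD (adjusted p = 7.74e-10), under the fold minimum. In the second experiment Tes was called higher in siArp4 against siControl (1.37 ± 0.12), where Cav2 was at 0.00, and lower in siArp4+CK666 against siArp4 (-1.38 ± 0.12), where Cav2 was at -1.34. No test compared Tes with the caveolins. Met, Capza2 and St7 lay between -0.31 and 0.33 in CK666 against control.

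**Figure D5:**
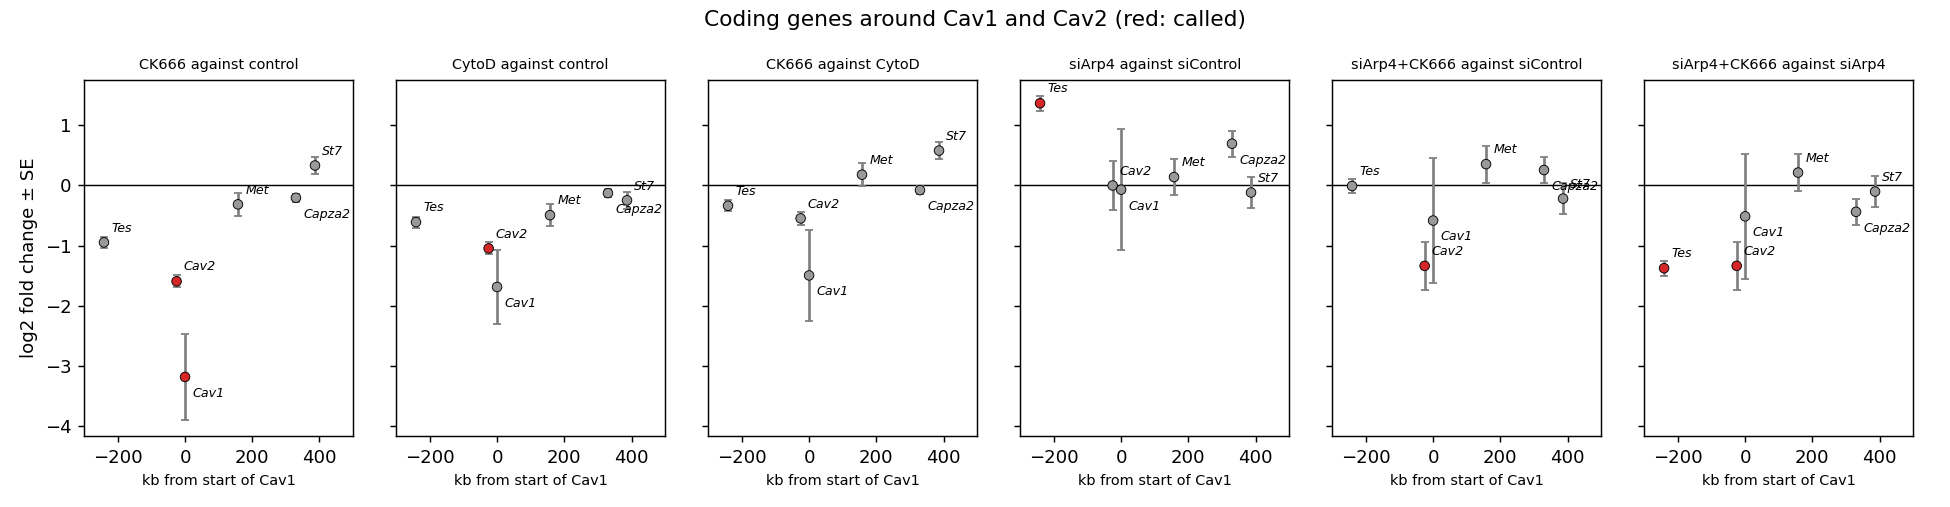
Log2 fold change with its standard error for the coding genes around Cav1, by distance of their start from that of Cav1 in kilobases, 1 panel per comparison, called genes in red and Tfec left out for its low counts. In CK666 against control Cav1 (-3.19) and Cav2 (-1.59) lie below Tes (-0.95), Met (-0.31) and Capza2 (-0.20).

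Over the 18 libraries the log2 normalized counts of Cavin1 and Ehd2 had a Pearson correlation of 0.896, those of Cavin2 and Ehd2 0.851, those of Cav1 and Cav2 0.817, and those of Cavin3 and Pacsin2 -0.08. Among 10313 other genes with a mean count of at least 100, those most like Cavin1 were Msmo1 (0.964), Lig1 (0.960) and Gm4316 (0.956). Those most like Ehd2 were Magee1 (0.975), Ifngr1 (0.965) and Ifi204 (0.959), and those most like Cav1 were Ldah (0.929), Pdlim5 (0.908) and Atad5 (0.903). By Spearman correlation only Lig1 and Magee1 stayed among the 3 nearest. The points share 6 groups, their depth and their short-gene share, and the counts of Cav1 are sparse, so these are descriptions of likeness and no more.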

How the data were processed

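RNA-seq was performed on 18 libraries of mouse MSC, 3 in each of 6 groups. The libraries were unstranded. The authors quantified transcripts with Salmon 1.2.1 on GRCm38 (mm10) with the GENCODE vM25 annotation and deposited expected counts per gene, not normalized, with totals of 18075610 to 24733212 per library, which limit the precision for Cav1. Expected counts were rounded to whole numbers. Symbols, exon lengths and coordinates were taken from GENCODE vM21 on the same build, in which 54094 of 54347 identifiers matched and 253 did not. DESeq2 1.42.0 in R 4.3.3 was run with its Wald test, as in the study's methods, on the 9 libraries of each experiment with group as the only term, and on all 18 for the difference between CK666 effects. A gene was called at an absolute log2 fold change over 1 and a Benjamini-Hochberg adjusted p below 0.01 over all genes. All p-values are two-sided. Alternatives were edgeR 4.0.16 (quasi-likelihood), TMM scaling, a count filter, other fold rules, other sets of libraries, a replicate block, each library left out and, chosen after the data were seen, removal of a trend of counts on exon length. The fits were checked on simulated counts with known changes.

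The members, the gene lists and the tests were chosen with earlier results of these data known. Genes are named by a rule: the 7 members, 21 other caveola genes and 15 clathrin coat genes where called or described by role, coding genes within 500 kb of Cav1, the 3 genes most like Cav1, Cavin1 and Ehd2, and Actl6a. Nostrin, Gm5417 and Gm15581 are named outside it, as are the marker genes named above. The labels number the replicates without saying what they share, and the study describes separate cell preparations, so p-values measure the spread between these libraries. Same-numbered CK666 and control libraries deviated together, with correlations of 0.293, 0.233 and 0.165 over 10319 genes, so that comparison counts as paired by the data. The block changed no member's call there. In the other comparisons at least 1 such correlation was below 0, and the numbers were taken as names. No 2 replicates agreed within sampling noise.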

Additional observations from a re-analysis of the deposited data

Results flagged for a closer look

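The effect of CK666 on Cavin3 in siArp4 cells minus its effect in untransfected cells was -1.27 ± 0.38 (SE) on the log2 scale (DESeq2 adjusted p = 0.00926), which drew attention because the effects differed by the test of the difference itself. Normalized counts of Cavin3 were lower in all 3 siArp4+CK666 libraries than in any siArp4 library, while CK666 and control libraries overlapped. By edgeR the difference was -1.28 (adjusted p = 0.0349), and with the trend of counts on exon length removed it was -1.03 (adjusted p = 5.03e-15). CK666 replicate 1, the highest CK666 library for Cavin3, held 19.3% of its counts in genes under 2000 bases, against 13.9% and 15.2% in the other CK666 libraries. Without it the difference was -1.05 (DESeq2 adjusted p = 0.0519), not called. Of 12 fits that each left out 1 library, 3 kept the call. Beyond these fits the part of short genes in the result was not tested. Depletion and transfection cannot be told apart here.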

How the results depend on the processing

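Counts of members called moved with the fold rule. A test against a fold change of 2 at adjusted p below 0.01 called 1 member in CK666 against control, 0 in CytoD against control, 1 in siArp4 against siControl, 2 in siArp4+CK666 against siControl, 0 in siArp4+CK666 against siArp4 and 0 for the difference in CK666 effect. Of the other caveola genes it called 0 in CK666 against control, 0 in CK666 against CytoD, 1 in siArp4 and 2 in siArp4+CK666 against siControl, 0 in siArp4+CK666 against siArp4 and 0 for the difference. With no fold minimum 3 members passed in CytoD against control and 2 in siArp4+CK666 against siArp4, and 7, 8, 7 and 4 other caveola genes passed in CK666 against control, CytoD against control, CK666 against CytoD and siArp4+CK666 against siArp4. edgeR called 3 members in siArp4+CK666 against siControl, 0 in siArp4+CK666 against siArp4 and 0 for the difference, with 1 other caveola gene there. Fitting only the groups compared gave 3 members in siArp4+CK666 against siControl, and 2 members and 1 other gene in siArp4+CK666 against siArp4. In that last comparison the count filter gave 2 members, all 18 libraries in 1 fit gave 2 and removal of the length trend 0, and with that trend removed 1 other gene was called for the difference. With the replicate block 2 members were called in siArp4+CK666 against siArp4, 4 in siArp4+CK666 against siControl and 1 other caveola gene for the difference. No other count of calls among the members and the other caveola genes moved by over 1.5 times. Clathrin coat genes are outside that statement, and by edgeR 1 of them was called in siArp4+CK666 against siControl. Calls of Cav1, Cav2, Cavin1 and Ehd2 in CK666 against control were kept under TMM scaling, the filter, edgeR, the block and each library left out. Leaving out 1 library at a time, members called ran from 1 to 3 in siArp4 against siControl, 3 to 5 in siArp4+CK666 against siControl, 0 to 2 in siArp4+CK666 against siArp4 and 0 to 1 for the difference. Other caveola genes ran from 1 to 2, 0 to 1, 1 to 3, 1 to 3 and 1 to 2 in CK666 against control, CytoD against control, CK666 against CytoD, siArp4+CK666 against siArp4 and the difference. Some values near 0 turned direction. In siArp4 against siControl, Cav1 was 0.25 and Cav2 0.12 with the block, Cav2 was 0.030 with all 18 libraries in 1 fit, and with 1 library left out Cav1 ran from -0.50 to 1.23, Cav2 from -0.37 to 0.52, Cavin3 from -0.23 to 0.31 and Pacsin2 from -0.29 to 0.085. Cav1 ran from -1.02 to 0.72 in siArp4+CK666 against siControl and Pacsin2 from -0.23 to 0.0098 in siArp4+CK666 against siArp4. For the difference in CK666 effect Pacsin2 was -0.0059 with TMM scaling and -0.013 with the length trend removed, and ran from -0.087 to 0.14, and Cavin2 ran from -0.11 to 0.24, leaving out libraries of the 4 groups it compares; siControl and CytoD libraries were not left out there. The cause of these changes was not tested.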
